A study of Mus musculus with 18 samples.

Results

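For osteoclast differentiation, 10 genes were followed in whole-genome bisulfite sequencing (WGBS) of mouse splenic CD11b+ and CD4+ cells: Tnfrsf11a, Tnfsf11, Acp5, Ctsk, Nfatc1, Dcstamp, Ocstamp, Oscar, Mmp9 and Itgb3. In WGBS, bisulfite changes the bases that carry no methyl group, and the share of reads in which a cytosine was kept gives its methylation. The members were every region in the authors' deposited tables that overlapped the body of one of the 10 genes (GENCODE release 21 on mm10) or the 10 kb to either side of it. They numbered 246 of 411770 listed regions for CD11b+ cells and 304 of 553467 for CD4+ cells. CD11b+ cells of the spleen are myeloid cells, among them the monocytes from which osteoclasts can form, and they are not osteoclasts. CD4+ cells are helper and regulatory T cells.

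The groups were WT (Dnmt3a+/+) and mutant mice, with 4 mice per genotype and cell type. The labels write the mutant genotype Dnmt3aR878/+, and the study describes it as Dnmt3a R878H/+, a heterozygous point mutation of the de novo DNA methyltransferase DNMT3A that is switched on in hematopoietic cells by Cre under the Vav1 promoter. No treatment is named for these mice. The study's general methods give an age of 8 to 10 weeks and the use of both sexes, and do not state whether the WT mice of this experiment carried Cre. The labels hold 6 entries for the 4 mutant CD11b+ samples. A point mutation cannot be checked in these tables, so the genotypes rest on the labels. In the sample-sheet numbers of the labels, all 4 mutant CD4+ entries are numbered above 200, as are 1 of the 4 WT CD4+ entries, 2 of the 6 mutant CD11b+ entries and none of the 4 WT CD11b+ entries. The part that this numbering played in the CD4+ differences was not tested.

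Each table row gives the position of a region, its number of CpG cytosines (counted on each strand separately), the authors' mean methylation of the 2 groups in percent, the difference between the means in percentage points and a q-value of the region caller metilene. Per-mouse values and read depth were not analysed here, so a group mean below has no error, no comparison could be tested across mice, and differences are set beside those of all listed regions. The tables do not name the groups. The first mean was read as WT because the study shows WT as the more methylated genotype, and every direction below rests on that reading. A differentially methylated region (DMR) had more than 10 cytosines, means that differed by more than 20 points and a q-value under 0.05. The study states these criteria with more than 10 CpGs, and they were applied here to the table's number, which counts the cytosines of each strand. Counted as CpG dinucleotides of mm10, 4 of the 5 DMRs of CD11b+ cells and 3 of the 6 of CD4+ cells described below have more than 10 (0.451% and 0.475% of all listed regions were such hypomethylated DMRs). It was hypomethylated when the mutant mean was the lower one. The q-values come from the authors' caller and are not errors between mice.

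The cell types were looked up in WT methylation near the transcription starts of marker genes. The nearest listed region within 2 kb of a start was less methylated in CD11b+ cells for 10 of 10 myeloid genes, and less methylated in CD4+ cells for 5 of 6 T cell genes. For 5 myeloid genes the regions of both tables overlapped by at least 50% of each, with WT means from 26.6% to 75.9% in CD11b+ cells and from 67.0% to 92.0% in CD4+ cells, the CD11b+ mean being the lower in all 5. The 1 T cell gene whose regions overlapped in this way, Lck, had 2.33% in WT CD11b+ cells and 5.75% in WT CD4+ cells, the reverse of the T cell count, so that count rests on regions of the 2 tables that do not overlap to this extent. Regions near the starts of 6 of 6 B cell genes were also lower in CD11b+ cells, with a median of 36.6% against 71.0% in CD4+ cells. The part of B cells in the CD11b+ values was not tested. Marker regions also moved with the genotype. Of 7 marker regions below 10% in WT CD11b+ cells, 5 (Cebpb, Bcl11b, Tcf7, Lef1 and Pax5) gained more than 10 points and stood between 21.2% and 47.5% in the mutant, against 0 of 3 in CD4+ cells. The part of these gains in the values of the 10 genes was not tested.

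Osteoclasts form when precursors meet RANKL, the product of Tnfsf11, which binds the receptor RANK, the product of Tnfrsf11a. RANK signals, together with costimulatory receptors such as OSCAR, induce NFATc1, the transcription factor that switches on genes for cell fusion (Dcstamp, Ocstamp), attachment to bone (Itgb3, the beta3 integrin) and resorption (Acp5, Ctsk, Mmp9). Methylated CpGs at promoters and enhancers usually go with low activity of these elements, and DNMT3A is one of the enzymes that put methyl groups there.

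The regions that carry the results below are shown with their sequence from the plus strand of mm10, in lower case with each CpG in capitals. For regions longer than 300 bases, the stretch of 300 bases with the most CpGs is printed. The first pair are the Acp5 DMRs of CD11b+ cells, the third is the region of largest gain, in a coding exon of Mmp9, the fourth is the region upstream of the Tnfsf11 start that was lower in the mutant of both cell types, and the fifth is the Itgb3 region with the largest loss of CD4+ cells, at the edge of an exon.
Acp5, chr9:22132161-22132460: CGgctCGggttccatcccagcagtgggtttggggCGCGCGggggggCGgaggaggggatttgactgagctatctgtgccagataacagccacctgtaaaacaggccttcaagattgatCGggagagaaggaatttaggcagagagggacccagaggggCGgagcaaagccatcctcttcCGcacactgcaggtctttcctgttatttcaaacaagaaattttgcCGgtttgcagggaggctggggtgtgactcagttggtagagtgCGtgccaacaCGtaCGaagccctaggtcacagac
Acp5, chr9:22137092-22137391: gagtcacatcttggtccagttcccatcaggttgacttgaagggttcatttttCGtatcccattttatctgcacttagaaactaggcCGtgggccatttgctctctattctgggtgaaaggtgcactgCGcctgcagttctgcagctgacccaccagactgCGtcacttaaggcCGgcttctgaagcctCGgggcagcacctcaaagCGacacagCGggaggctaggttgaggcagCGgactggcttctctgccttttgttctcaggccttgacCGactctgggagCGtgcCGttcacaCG
Mmp9, chr2:164949309-164949430: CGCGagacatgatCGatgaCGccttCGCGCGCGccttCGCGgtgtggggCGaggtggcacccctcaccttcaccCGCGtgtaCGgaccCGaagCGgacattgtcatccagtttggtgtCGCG
Tnfsf11, chr14:78308347-78308646: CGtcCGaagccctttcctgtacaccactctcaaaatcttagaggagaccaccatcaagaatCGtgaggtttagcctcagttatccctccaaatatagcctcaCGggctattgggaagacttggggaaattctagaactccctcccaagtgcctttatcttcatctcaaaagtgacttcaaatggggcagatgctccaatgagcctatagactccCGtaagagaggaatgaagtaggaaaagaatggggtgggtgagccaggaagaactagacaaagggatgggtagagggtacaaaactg
Itgb3, chr11:104641087-104641192: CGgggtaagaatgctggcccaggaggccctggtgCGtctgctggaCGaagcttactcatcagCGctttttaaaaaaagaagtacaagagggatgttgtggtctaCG
CpGs are sparse in the Tnfsf11 stretch, with 5 in 300 bases, and dense in the Mmp9 exon, with 18 in 122 bases. Each Acp5 stretch has 13 CpGs in 300 bases. The AP-1 motif TGANTCA, which reads the same on both strands and is bound by FOS and JUN proteins, occurred once in each of the 2 Acp5 DMRs. In the second it does not lie whole within the printed stretch. It was present in 9.82% and 14.3% of all listed CD11b+ regions within 10% of the lengths of the first and second DMR. The letters TGGAAA, a core motif of NFAT proteins, and GAGGAAG, a core motif of PU.1, were searched on both strands and were not found in either region. None of the 3 motifs was found in the Mmp9, Tnfsf11 and Itgb3 regions. Of 7 RefSeq promoters (300 bases each) of the 10 genes, 0 had the AP-1 motif, against 7.81% of all. The NFAT core was in 3 of the 7 (Acp5, Ctsk and Oscar), against 21.4%, and the PU.1 core in 2 (Ctsk and Oscar), against 13.6%.

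Over the 10 windows, methylation was lower in the mutant mean in nearly every region, as it was over the genome, and the losses were larger than those of the listed regions as a whole. In CD11b+ cells, 225 of 246 regions were lower in the mutant (91.5%, against 93.4% of all listed regions). Their median methylation was 86.4% in WT and 78.6% in mutant cells, and the median loss per region was 7.55 percentage points, against 6.55 over all listed regions. A loss above 20 points was found in 33 of the 246 regions (13.4%, against 7.0% of all), and 5 regions were hypomethylated DMRs (2.03%, against 0.576%). None was a hypermethylated DMR, a class that held 0.0126% of all listed regions.

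In CD4+ cells, 297 of 304 regions were lower in the mutant (97.7%, against 95.5% of all listed regions). Medians were 87.4% in WT and 75.1% in mutant cells, and the median loss was 9.5 points, against 6.85 over all listed regions. A loss above 20 points was found in 48 regions (15.8%, against 6.23%), and 6 were hypomethylated DMRs (1.97%, against 0.665%). Hypermethylated DMRs numbered 0, beside 0.000542% of all listed regions. All 6 hypomethylated DMRs lay in the window of Nfatc1, the longest of the genes, so that without Nfatc1 the remaining 187 regions of CD4+ cells held 0 DMRs, while their median loss was 9.32 points. Without Nfatc1, the 160 regions of CD11b+ cells held 2 DMRs, both at Acp5, with a median loss of 7.86 points.

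**Figure D1:**
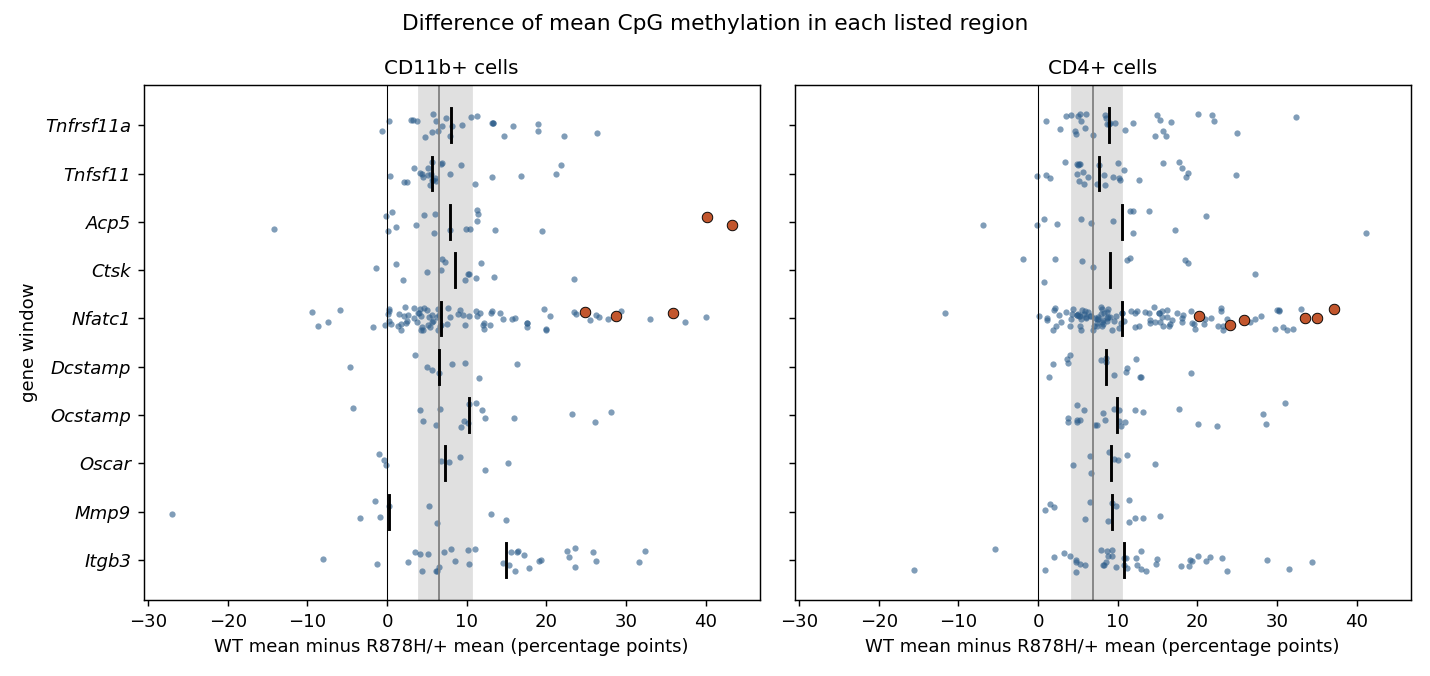
Difference between the WT mean and the R878H/+ mean of each listed region, in percentage points on the x axis, for the 10 gene windows, in CD11b+ cells (left) and CD4+ cells (right). Small points are regions, large orange points are hypomethylated DMRs, black bars are medians, and the grey line and band are the median and interquartile range of all listed regions. In CD11b+ cells the median of Itgb3 stands highest at 14.92 points and that of Mmp9 lowest at 0.18, and the DMRs belong to Acp5 and Nfatc1.

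By gene, the median losses of CD11b+ cells ran from 0.18 points at Mmp9 to 14.92 at Itgb3, and those of CD4+ cells from 7.7 points at Tnfsf11 to 10.83 at Itgb3. The order of genes between these ends has no test behind it, and apart from Mmp9 in CD11b+ cells and Itgb3 in both cell types the gene medians lay within the interquartile range of all listed regions, 4.0 to 10.6 points in CD11b+ cells and 4.32 to 10.56 in CD4+ cells.

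The loss varied with the WT level of a region, and the 10 windows held a smaller share of highly methylated regions than the tables did. In CD11b+ cells, 38.6% of the member regions had a WT mean of 90% or more, against 45.2% of all listed regions, and there the median loss was 4.63 points in the windows and 4.85 in all. Between 50% and 80% in WT, the median loss was 14.96 points in the windows and 13.42 in all. In CD4+ cells, the windows exceeded all listed regions at WT means of 20% or more, for instance with 18.85 against 13.05 points between 50% and 80%, and 6.23 against 5.18 points at 90% or more. At WT means under 20%, the medians were 2.0 points in the windows and 2.75 in all.

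The ligand and its receptor held no DMR in either cell type. Tnfsf11, which encodes RANKL, is known to be made by activated T cells as well as by bone cells. Its window (chromosome 14, 78277445 to 78308043 for the gene) had 25 listed regions in CD11b+ cells, all of them lower in the mutant, and 29 in CD4+ cells, of which 28 were lower. The median losses were 5.6 and 7.7 points. The region just upstream of the transcription start, whose CpGs are printed above, had the largest loss of the window in both cell types. In CD11b+ cells it lay 305 bp upstream, and its mean was 84.5% in WT and 62.7% in mutant cells. In CD4+ cells it lay 304 bp upstream, with 69.6% in WT and 44.8% in mutant cells. The q-value was 1 in both tables, with 10 and 11 cytosines. A region in the body of the gene, 835 bp from the start, was nearly unmethylated in CD4+ cells of either genotype, at 3.02% and 2.02%.

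Tnfrsf11a, which encodes RANK (chromosome 1, 105780718 to 105847981), had 26 listed regions in CD11b+ cells, 25 of them lower in the mutant, and 31 in CD4+ cells, all lower. Its RefSeq promoter on GRCm38, a window of 300 bases around the start, has 43 CpGs, against a median of 7 over 32851 RefSeq promoters. The CD11b+ region nearest to the start, 572 bp upstream, was 82.2% in WT and 71.7% in mutant cells. A listed region 158 bp upstream of the start was unmethylated in both genotypes of CD4+ cells, at 4.9% in WT and 2.1% in the mutant. The largest loss of the gene lay in an intron in both cell types, 3599 bp from the start in CD11b+ and 3248 bp in CD4+ cells, from 60.7% to 34.3% in CD11b+ cells and from 67.9% to 35.5% in CD4+ cells. A second intronic place, more than 60 kb into the gene, also fell in both means, from 36.1% to 13.9% in CD11b+ cells and from 36.2% to 14.3% in CD4+ cells. The q-values of these 4 regions were 1.

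Nfatc1, the transcription factor downstream of RANK, held most of the DMRs. Its gene spans 107 kb of chromosome 18, from 80606205 to 80713071 on the minus strand, and its window held more listed regions than any other of the 10. In CD11b+ cells, 80 of 86 regions were lower in the mutant, 15 by more than 20 points, and 3 were DMRs. In CD4+ cells, all regions but 1 were lower (99.1%), 26 of them by more than 20 points (22.2%), and 6 were DMRs. The median losses were 6.72 points in CD11b+ and 10.52 points in CD4+ cells.

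The DMRs of Nfatc1 lay in its introns, apart from 1 in an exon and 1 upstream of the gene, both in CD4+ cells. The intronic DMR that was shared by the cell types lay 93994 bp from the nearest coding start in CD11b+ cells. In CD11b+ cells it reached from 80613132 to 80614179 and went from 87.0% in WT to 58.3% in the mutant (q = 3.5e-06 in the authors' deposited table). In CD4+ cells it reached from 80613872 to 80614193 and went from 89.7% to 54.6% (q = 2.8e-05 in the authors' deposited table). It was the only pair of overlapping regions among the 10 genes that met the DMR criteria in both cell types.

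The second CD11b+ DMR of Nfatc1, from 80628934 to 80629144, stood at 29.8% in WT and 4.94% in mutant cells (q = 0.0012 in the authors' deposited table), with 18 cytosines in 10 dinucleotides, and the overlapping region of CD4+ cells at 53.8% and 24.1% (q = 1). The third, from 80684226 to 80684517, went from 75.5% to 39.7% (q = 0.019 in the authors' deposited table), and the overlapping region of CD4+ cells, which begins at the same base, from 74.8% to 43.5% (q = 0.41). So both had a loss above 20 points in CD4+ cells too and missed the criteria there by the q-value. The difference between the cell types was not tested. The largest loss of CD11b+ cells at Nfatc1 was in another intronic region, from 80638691 to 80638921, with 79.7% in WT and 39.7% in mutant cells, and it was no DMR, with 10 cytosines and a q-value of 0.08.

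Among the CD4+ DMRs of Nfatc1, the largest loss was at 80682735 to 80683154, from 58.4% in WT to 21.3% in the mutant (q = 0.038 in the authors' deposited table). The overlapping region of CD11b+ cells went from 65.6% to 32.6% with a q-value of 1. A DMR nearer to the start of the gene, from 80702829 to 80703475, went from 67.5% to 34% in CD4+ cells (q = 4.2e-05 in the authors' deposited table). It was overlapped in CD11b+ cells by 2 regions, one that went from 74.9% to 55.0% and one, at its 3' side in the gene, that went from 35.3% to 14.9%, so that WT CD11b+ cells were 7.4 points above the CD4+ mean in the first and 32.2 points below it in the second. The exon DMR, from 80698014 to 80698553, went from 93.1% to 72.9% (q = 0.014 in the authors' deposited table), and another intronic DMR, from 80616295 to 80616650, from 82.6% to 58.6% (q = 0.0058 in the authors' deposited table). The upstream DMR began 5762 bp before the nearest coding start and went from 83.3% to 57.5% (q = 0.045 in the authors' deposited table). The CD11b+ region there had nearly the same difference, from 72.9% to 47.8%, with a q-value of 1.

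Along Nfatc1, the losses of CD4+ cells were largest around the 5' end. The 20 regions centred in the first 20 kb of the gene had a median loss of 17.73 points, with medians of 63.1% in WT and 38.2% in mutant cells, and the next 17 regions 9.5 points. In CD11b+ cells the 15 regions of the first 20 kb had a median loss of 11.69 points and those from 80 to 100 kb, where 2 of its DMRs lie, 5.2 points. At the annotated start itself, the CpG-rich region of CD4+ cells was unmethylated in both genotypes, at 0.81% in WT and 0.70% in the mutant, over 28 cytosines. The nearest listed region of CD11b+ cells lay 712 bp from the start, with 62.4% and 38.8%.

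**Figure D2:**
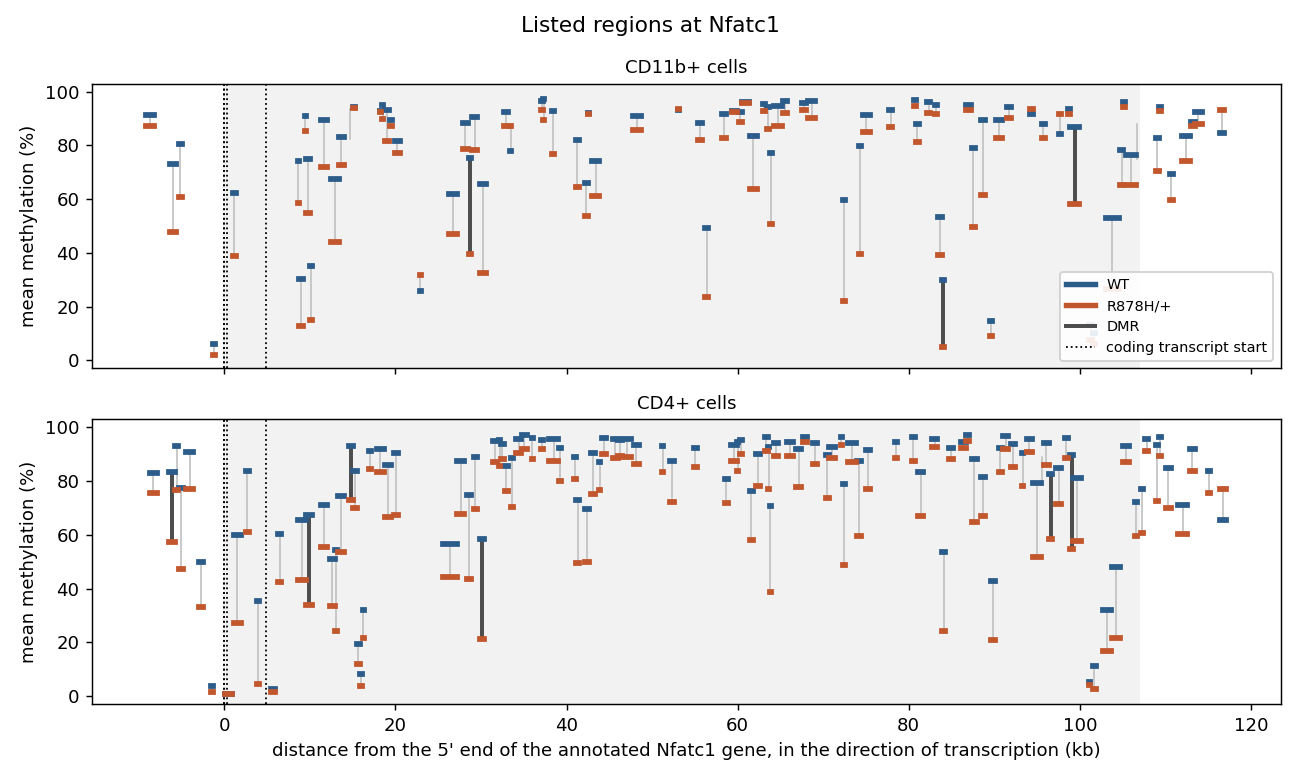
Mean methylation (y axis, percent) of each listed region at Nfatc1, by distance in kb from the 5' end of the gene in the direction of transcription (x axis), in CD11b+ cells (top) and CD4+ cells (bottom). Blue bars are WT means, orange bars R878H/+ means, dark connecting lines mark hypomethylated DMRs, the grey field is the gene and dotted lines are starts of coding transcripts. The start was unmethylated in CD4+ cells of both genotypes, and the 3 DMRs of CD11b+ and 6 of CD4+ cells lay away from it.

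Acp5, the gene of tartrate-resistant acid phosphatase, had the largest loss of the 10 genes in each cell type. It spans 22126727 to 22135711 of chromosome 9 on the minus strand, with 5 annotated starts of coding transcripts. Its window held 19 listed regions in CD11b+ cells, 17 of them lower in the mutant, and 14 in CD4+ cells, 12 of them lower. In CD11b+ cells, 2 regions were hypomethylated DMRs.

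The first Acp5 DMR of CD11b+ cells, from 22132162 to 22132467, lies inside the gene, outside its annotated coding exons, and 331 bp upstream of one of the internal coding starts. It went from 76.1% in WT to 32.8% in mutant cells over 17 cytosines (q = 0.00068 in the authors' deposited table). Next to it, across 3 of the 4 internal starts, methylation was low in either genotype, with 12.5% in WT and 1.12% in the mutant from 22131811 to 22132064, and 0.92% and 1.02% from 22131332 to 22131802. Across the fourth internal start, from 22130506 to 22131217, it was 42.4% and 31.1%. On the other side of the DMR, from 22132658 to 22132928, it was 95.1% and 94.0%. The DMR thus had a stretch of low methylation on one side and one of high methylation on the other. In CD4+ cells a longer region of 30 cytosines, from 22132043 to 22132657, covered the place of the DMR and went from 40.0% to 18.9% (q = 1). The CD4+ region nearest to a start, 124 bp from it, had 0.6% and 0.75%.

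The second Acp5 DMR of CD11b+ cells lies upstream of the gene, 1372 bp from its outermost coding start, from 22137083 to 22137534. It went from 78.0% in WT to 37.8% in mutant cells over 19 cytosines (q = 0.0002 in the authors' deposited table). The CD4+ region there, from 22137145 to 22137559, had the same size of difference, from 74.4% to 33.2%, and was no DMR because it counted 10 cytosines and had a q-value of 0.15. The difference between the cell types was therefore -0.94 points at this place. The 2 regions overlapped by 86.3% of the longer one.

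One Acp5 region had the opposite direction in CD11b+ and CD4+ cells. It lies 7425 bp upstream, from 22143136 to 22143307, and was 22.1% in WT and 36.3% in mutant CD11b+ cells, with a q-value of 1. The overlapping CD4+ region was 48.2% in WT and 36.7% in the mutant. The gap between these differences, 25.7 points, was the widest of the overlapping regions with at least 50% of each shared, and it was not tested across mice.

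**Figure D3:**
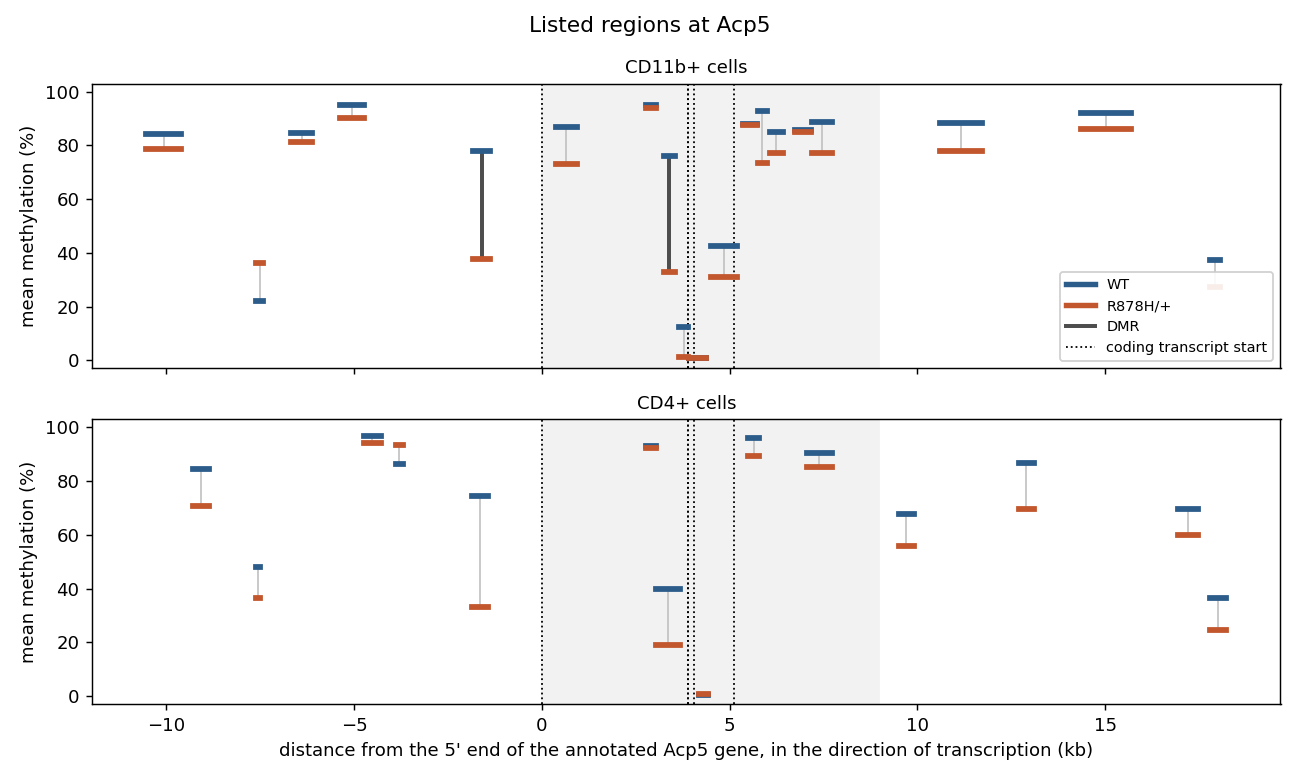
Mean methylation (y axis, percent) of each listed region at Acp5, by distance in kb from the 5' end of the gene in the direction of transcription (x axis), in CD11b+ cells (top) and CD4+ cells (bottom). Colours are those of the Nfatc1 plot, and dotted lines are starts of coding transcripts. The dark lines are the 2 CD11b+ DMRs, 76.1% to 32.8% inside the gene and 78.0% to 37.8% upstream of it, and the CD4+ region at the upstream place went from 74.4% to 33.2%.

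The other resorption genes had no DMR. Ctsk, the gene of cathepsin K (chromosome 3, 95499256 to 95509362), has 2 CpGs in its RefSeq promoter. It had 14 regions in CD11b+ cells, 13 lower in the mutant, and 10 in CD4+ cells, 9 lower. The region with the largest difference lay just past the end of the gene in both cell types. It went from 44.1% in WT to 20.7% in mutant CD11b+ cells, and from 65.7% to 38.5% in CD4+ cells, so that WT CD11b+ cells stood 21.6 points below WT CD4+ cells. Closest to the start, 394 to 610 bp inside the gene, the means went from 80.6% to 70.8% in CD11b+ cells and from 79.6% to 60.8% in CD4+ cells.

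Mmp9, which encodes a gelatinase that osteoclasts and neutrophils release, had the lowest share of regions with a lower mutant mean in CD11b+ cells, 5 of 9 (55.6%), with a median loss of 0.18 points. All 13 of its CD4+ regions were lower, with a median loss of 9.26 points. A WT mean under 10%, where little can be lost, was found in 3 of the 9 CD11b+ and 2 of the 13 CD4+ regions. Only 5 of the 9 CD11b+ regions overlapped a CD4+ region. The gene spans 164940780 to 164955850 of chromosome 2, with a second coding start 7.44 kb into it. The region across that start was unmethylated in both genotypes, at 4.95% in WT and 5.8% in mutant CD11b+ cells, while CD4+ cells had 1.98% and 1.12% there. About 1 kb downstream, in the coding exon 3 of 13, a stretch of 122 bases was 6.54% methylated in WT and 33.6% in mutant CD11b+ cells, a gain of 27.0 points over 17 cytosines with a q-value of 1. It was the largest gain among the 246 CD11b+ regions. The largest loss of the window lay upstream of this start in both cell types, from 64.9% to 49.9% in CD11b+ cells and from 81.5% to 66.2% in CD4+ cells. A CD4+ region that reaches 3 bases into the exon stretch was 2.65% in WT and 1.2% in the mutant.

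Gains at unmethylated regions were common in the CD11b+ table as a whole. Of 8415 listed CD11b+ regions with a WT mean below 10%, 17.4% gained more than 10 points in the mutant and 9.27% more than 20. In CD4+ cells these shares were 0.586% and 0.0255% of 7855 regions. Among the 10 windows, 6 such regions of CD11b+ cells lay at Acp5, Mmp9, Nfatc1 and Ocstamp. The mutant mean was higher in 4 of them, against 46.1% of the 8415, and the Mmp9 exon was the only one with a gain above 10 points. The 5 marker regions given above are of the same kind. In the 11 such regions of CD4+ cells, 1 mean was higher in the mutant, against 31.8% of the 7855, and none by more than 10 points. A group mean of 4 mice cannot show whether 1 mouse or all of them carried a gain.

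**Figure D4:**
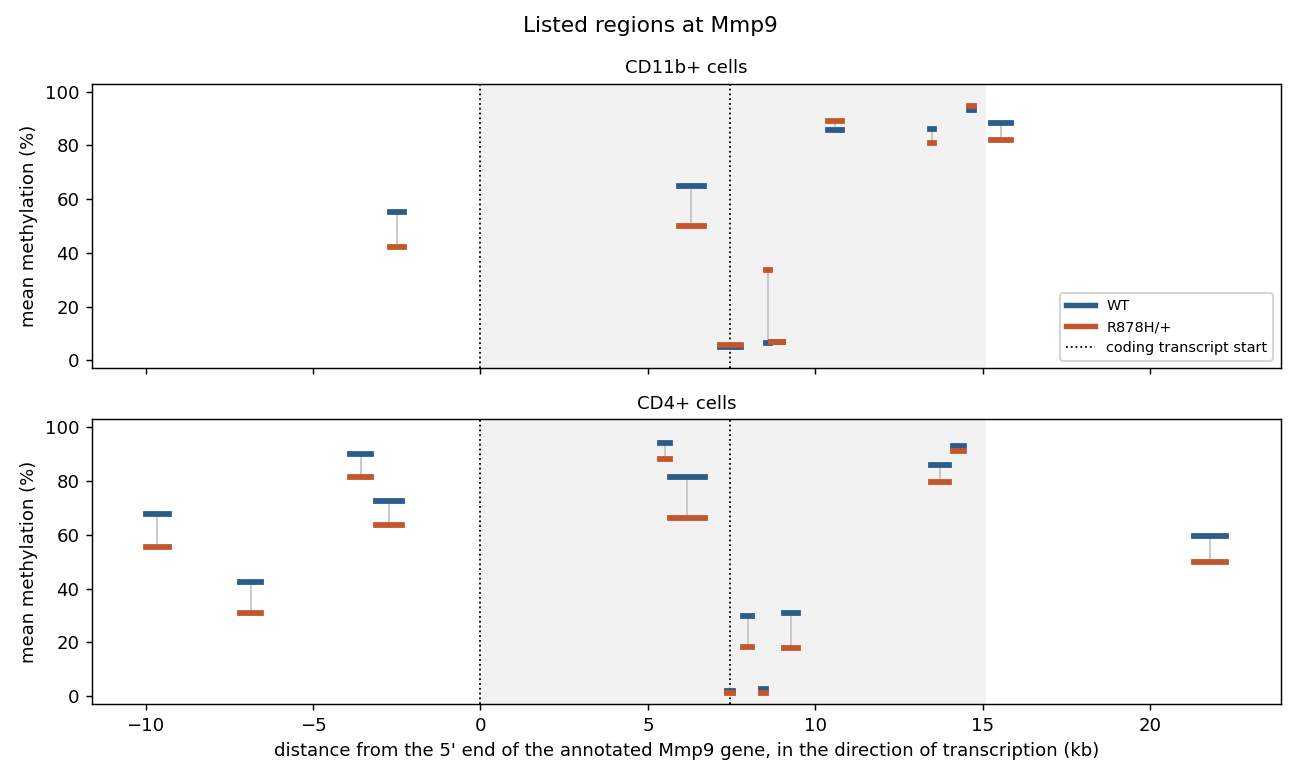
Mean methylation (y axis, percent) of each listed region at Mmp9, by distance in kb from the 5' end of the gene in the direction of transcription (x axis), in CD11b+ cells (top) and CD4+ cells (bottom). Blue bars are WT means, orange bars R878H/+ means, the grey field is the gene and dotted lines are starts of coding transcripts. The region across the second start was at 4.95% in WT and 5.8% in mutant CD11b+ cells, and the exon region after it rose from 6.54% to 33.6% in these group means.

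The fusion genes had no DMR. Dcstamp, which encodes a membrane protein needed for the fusion of precursors (chromosome 15, 39745930 to 39760938), had 9 regions in CD11b+ cells, 8 lower in the mutant, and 15 in CD4+ cells, all lower. The region across its start, at 60.9% in WT and 44.6% in mutant CD11b+ cells, had the largest loss of the window in these cells, 16.3 points. The nearest CD4+ region, 352 bp inside the gene, was 90.03% in WT and 77.3% in the mutant. These 2 regions share 94 bases, 19.8% of the longer one. The largest loss of CD4+ cells at Dcstamp was in an intron, from 65.7% to 46.5%.

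Ocstamp, a second membrane protein of fusion (chromosome 2, 165393760 to 165400405), had 16 regions in CD11b+ cells, 15 lower in the mutant, with a median loss of 10.25 points, and 24 in CD4+ cells, all lower, with a median of 9.85. The region across its start was 74.7% in WT and 64.5% in mutant CD11b+ cells. A region 698 bp upstream was 42.0% in WT CD11b+ cells and 15.7% in WT CD4+ cells, and in the mutants 26.1% and 10.7%. The region after it, 867 bp upstream, went from 52.5% to 26.4% in CD11b+ cells (q = 0.28) and from 38.0% to 24.9% in CD4+ cells. Further upstream, at 2848 bp, CD11b+ cells had the largest loss of the window, from 49.9% to 21.8%, and CD4+ cells one from 56.5% to 27.9% (q = 0.29) in a region that contains it. In the first 2 places WT CD11b+ cells were the more methylated, and in this one WT CD4+ cells were. Among all overlapping pairs of Ocstamp, WT means more than 20 points apart were lower in CD11b+ cells in 3 and lower in CD4+ cells in 3. Of these pairs, only the one 698 bp upstream, lower in CD4+ cells, shared at least 50% of each region (94.9%). The others shared at most 19.1% and so set mostly neighbouring places side by side. The largest loss of CD4+ cells lay 6907 bp upstream, from 75.4% to 44.5%.

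Oscar, the receptor that costimulates RANK (chromosome 7, 3609813 to 3616157), is a small gene with 8 listed regions in each cell type and no listed region within 1 kb of a start. The nearest, 1380 bp inside the gene in CD11b+ and 1264 bp in CD4+ cells, had 82.7% in WT and 70.4% in the mutant in the first, and 85.7% and 75.6% in the second. The mutant mean was lower in 5 of them for CD11b+ cells and in 8 for CD4+ cells. The 3 regions that were not lower in CD11b+ cells exceeded WT by at most 1.0 points. The largest loss was 15.2 points in CD11b+ cells, from 60.3% to 45.1% just past the end of the gene, and 14.7 points in CD4+ cells, from 68.5% to 53.8% in an exon.

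Itgb3, whose beta3 integrin attaches osteoclasts to bone, had the highest median loss of the 10 genes in CD11b+ cells, and no DMR. The gene spans 104608000 to 104670476 of chromosome 11. Nearest to its start, the CD11b+ region 474 bp upstream had 71.4% in WT and 56.9% in the mutant, and the CD4+ region 282 bp upstream 52.3% and 48.2%. Of its 34 CD11b+ regions, 32 were lower in the mutant, 21 by more than 10 points and 8 by more than 20, and 24 had more than 10 cytosines. The smallest q-value among those 8 regions was 0.39, at 104657852 to 104658443, where the means were 85.9% in WT and 62.4% in the mutant. The largest loss of CD11b+ cells was in an intron 16815 bp from the start, from 62.7% to 30.3%, and the overlapping CD4+ region went from 81.4% to 49.8%.

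The Itgb3 region with the largest loss in CD4+ cells, printed above, begins in exon 8 of 15, of which it holds 4 bases, and continues into the intron. It was 76.7% in WT and 42.3% in mutant CD4+ cells over 10 cytosines. The region of CD11b+ cells that contains it was 27.9% in WT and 12.4% in the mutant. WT CD11b+ cells were thus 48.7 points below WT CD4+ cells here, the widest such gap among the overlapping regions that share at least 50% of each. Another Itgb3 intron region differed between WT cells by 27.7 points, with 46.1% in CD11b+ cells and 73.9% in CD4+ cells.

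Across cell types, 189 CD11b+ regions of the windows (76.8%) overlapped a CD4+ region, and 187 CD4+ regions (61.5%) overlapped a CD11b+ region, in 221 pairs. Losses were larger in CD4+ cells in 134 pairs and in CD11b+ cells in 87, and the median of the CD11b+ minus the CD4+ loss was -1.71 points. Over all listed regions this median was -0.27 points in 279942 pairs, with the loss larger in CD4+ cells in 52.2%. For the 96 pairs of the windows that shared at least 50% of each region, the median was -1.42 points (interquartile range over pairs -5.97 to 2.08), against -0.3 points over all listed regions. In 93 of the 96, both means were lower in the mutant, and in 80 the losses lay within 10 points of each other. WT CD11b+ cells were lower than WT CD4+ cells by more than 20 points in 5 of the 96, at Acp5, Ctsk, Itgb3 and Nfatc1, and higher by more than 20 points in 1, at Ocstamp.

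By gene, the direction of this comparison varied. At Nfatc1, the loss was larger in CD4+ cells in 64 of 94 pairs, with a median difference of -3.55 points, and at Tnfsf11 in 13 of 18, with -3.81 points. At Itgb3 it was larger in CD11b+ cells in 18 of 32 pairs, with a median difference of 1.46 points. No test across mice stands behind these counts, and pairs of 1 gene share their samples. At each of these genes some pairs shared only 1 base, and 1 region could enter several pairs. The counts therefore partly set neighbouring places side by side.

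**Figure D5:**
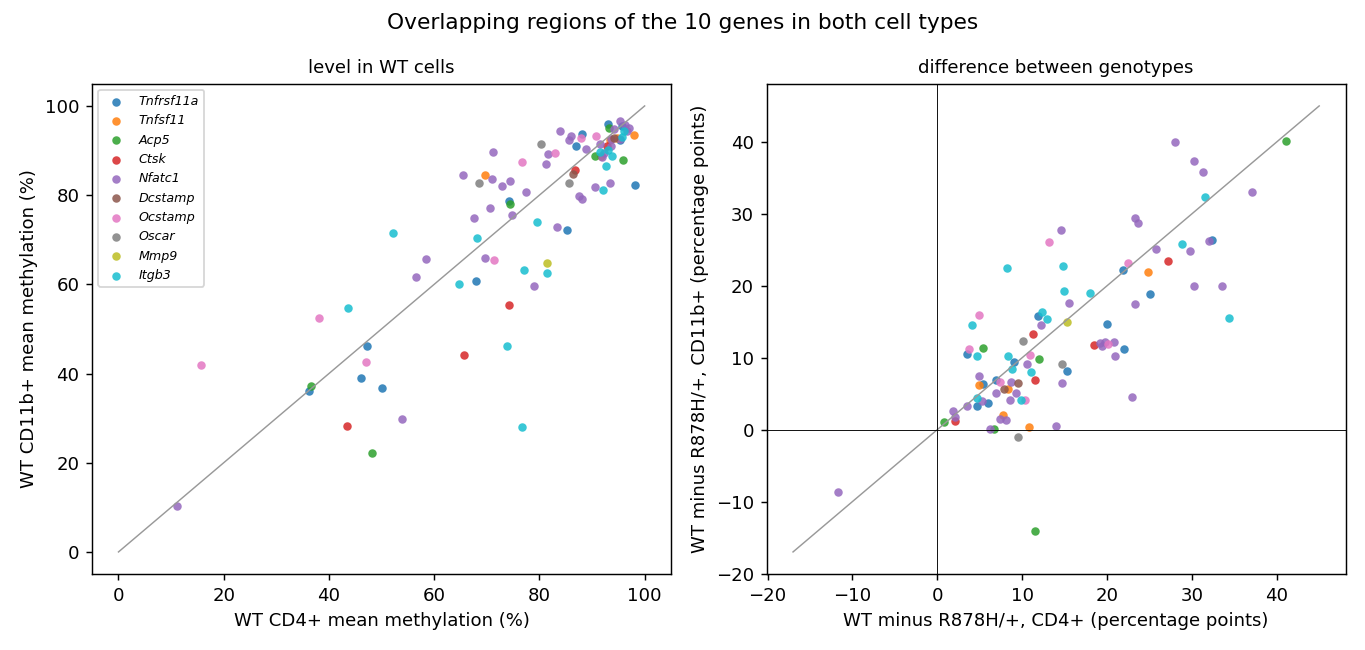
Overlapping regions of the 10 genes that share at least 50% of each, 96 pairs, in CD4+ cells (x axes) and CD11b+ cells (y axes). Left, mean methylation of WT cells in percent. Right, WT mean minus R878H/+ mean in percentage points. The grey lines mark equal values. Most pairs lie near the line on the right, the Acp5 upstream pair at 41.1 and 40.2 points among them, and the Itgb3 exon-edge pair lies far below the line on the left, at 76.7% and 27.9%.

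Position in the gene gave a different picture in each cell type. The 23 regions within 1 kb of a start had a median loss of 11.32 points in CD11b+ cells, against 7.98 for the promoters of all genes, and the 26 of CD4+ cells 6.26 points, against 8.84. In the CD4+ regions the WT median was 43.1%, against 72.2% over all promoters, and in CD11b+ cells 74.7%, against 64.8%. The regions listed near starts were not the same ones in the 2 cell types. Acp5, with 5 coding starts, gave more of the CD11b+ regions than any other gene. Unmethylated starts of Tnfrsf11a and Nfatc1 were listed in CD4+ cells, at 4.9% and 0.81% in WT. The nearest CD11b+ regions, at 82.2% and 62.4% in WT, lay at other places, 572 bp upstream of the first start and 712 bp inside the second gene. CD4+ regions overlapping them had WT means of 98.1% and 70.85% at Tnfrsf11a and 60.1% at Nfatc1. So these values do not compare the cell types at the starts. Regions outside promoters had a median loss of 6.9 points in CD11b+ cells (6.48 for all) and 9.58 in CD4+ cells (6.78 for all).

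Counted by gene, 2 of the 10 windows held a hypomethylated DMR in CD11b+ cells, Acp5 and Nfatc1, and 1 in CD4+ cells, Nfatc1. The same count over all protein-coding genes with a listed region was 9.18% for CD11b+ and 12.6% for CD4+ cells. Windows with a DMR held a median of 23 regions (CD11b+) and 26 (CD4+), and those without one 10 and 13, so a count of genes with a DMR moves with the number of regions in the window.

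The wider pathway was covered by 73 further genes of osteoclast differentiation, chosen by their known roles and with earlier results of these data known. The shares below are therefore a description and not an independent test. In CD11b+ cells, 71 had a listed region and 23 of these (32.4%) a hypomethylated DMR. In CD4+ cells, 72 had one and 27 (37.5%) a hypomethylated DMR, and 18 genes had one in both. These shares are above the 9.18% and 12.6% of all genes, and the windows of these genes were also richer in regions, with medians of 17 and 22 against 11 and 14. Over the wider genes, 93.3% of 2159 regions in CD11b+ cells and 95.7% of 2735 in CD4+ cells were lower in the mutant, against 93.4% and 95.5% of all listed regions.

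Among the ligands, decoys and receptors of precursors, Csf1r, Tnfrsf1a and Il1r1 had a DMR in both cell types and Tnf in CD4+ cells. These were 3 of 9 genes in CD11b+ and 4 of 9 in CD4+ cells, against 9.18% and 12.6% of all genes. The windows of the 9 genes held medians of 21 and 24 regions, against 11 and 14 over all genes. Csf1r encodes the receptor of M-CSF, on which monocytes and osteoclast precursors depend, and its intronic DMR 1838 bp from the start went from 43.0% to 8.87% in CD11b+ cells and from 78.6% to 25.7% in CD4+ cells. At Il1r1, an interleukin-1 receptor, the DMR past the end of the gene went from 49.5% to 6.86% in CD11b+ cells and from 66.4% to 20.5% in CD4+ cells. For both genes the WT mean was lower in CD11b+ cells and the mutant mean was the lower one in either cell type.

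Adaptors, kinases and co-receptors had DMRs at 5 of 18 genes in CD11b+ cells (Traf3, Trem2, Btk, Src and Pik3r1). In CD4+ cells they had them at 5 of 19 (Btk, Plcg2, Src, Vav3 and Pik3r1). Over all genes, 9.18% (CD11b+) and 12.6% (CD4+) held a DMR. TRAF3 restrains noncanonical NF-kB signaling and TREM2 is a DAP12-coupled receptor of myeloid cells. At Src, a kinase needed for the ruffled border of osteoclasts, the DMR spanned a start and went from 59.7% to 20% in CD11b+ cells and from 61.8% to 25.5% in CD4+ cells. The calcium and calcineurin genes had DMRs at the same 3 genes in both cell types, Ppp3ca, Rcan1 and Itpr2, of 6. At each of these 3 genes, the DMRs with the largest loss did not overlap between the cell types. The windows of the 6 genes were rich in regions, with medians of 54.5 in CD11b+ and 58 in CD4+ cells, against 11 and 14 over all genes.

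Activating transcription factors had DMRs at 4 of 16 genes in CD11b+ cells (Fos, Nfkb1, Fosl2 and Ppargc1b). In CD4+ cells 9 of 16 had one (Spi1, Fos, Junb, Nfkb1, Relb, Prdm1, Creb1, Jdp2 and Ppargc1b). The shares of all genes with a DMR were 9.18% and 12.6%. Median windows of the 16 genes held 15.5 and 20.5 regions, against 11 and 14 over all genes. The Fos DMR, past the end of the gene, went from 74.1% to 32.4% in CD11b+ cells and from 79.0% to 50.8% in CD4+ cells. The restraining factors had DMRs at Irf8, Bcl6, Ebf1 and Ets2 in CD11b+ cells and at Irf8, Bcl6 and Ebf1 in CD4+ cells, of 8. IRF8 and BCL6 are repressors of osteoclast genes, and the Irf8 DMR upstream of the gene went from 92.2% to 60.3% in CD11b+ cells and from 91.7% to 69.6% in CD4+ cells. So genes that promote and genes that restrain the program both held DMRs.

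The genes of acid secretion, attachment and resorption had DMRs at Snx10, Car2, Itgav and Mmp14 in CD11b+ cells, of 14. In CD4+ cells they had them at Snx10, Car2 and Itgav, of 14. Beside these counts, 9.18% and 12.6% of all genes held a DMR. Mmp14, a membrane-bound metalloproteinase, had the largest loss among the DMRs of the wider genes in CD11b+ cells, from 74.3% to 26.7% in a region just upstream of a start (q = 1.8e-13 in the authors' deposited table). Itgav, the partner chain of the beta3 integrin, had its DMR in an intron, from 54.2% to 21.1% in CD11b+ cells and from 83.2% to 43.9% in CD4+ cells at the same coordinates. Gains that met the DMR criteria were found at 2 of the wider genes for CD11b+ cells, over 2159 regions, and at 0 for CD4+ cells, over 2735. Of all listed regions, 0.0126% and 0.000542% were such hypermethylated DMRs, so almost none could be found in CD4+ cells. At Junb, an AP-1 subunit, a region of 45 cytosines in the promoter went from 0.228% to 44.1%, and in the window of Plekhm1, a vesicle-trafficking gene, a region past its end from 4.26% to 35.6%.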

How the data were processed

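Splenic CD11b+ and CD4+ cells were compared by WGBS between 4 WT and 4 mutant mice each. The authors sorted the cells on magnetic columns, aligned to mm10 by BISCUIT and compared the genotypes with metilene, with versions and coverage minimum not given in the sources used here, and the submitters' processing notes name FastQC. The 2 deposited tables hold, per region, group means in percent, a difference, a number of cytosines, a q-value and p-values. The authors' means and q-values were used as deposited, and p-values only in an alternative. There were 0 columns of per-sample values, so group size was checked on regions of 10 cytosines: in 100% of them the means were those of 4 whole-percent values per cytosine in each group. Of 5000 regions checked per cell type, 100% began at a CpG of mm10 when coordinates were counted from 1, and genomic cytosines were never fewer than the table's number.

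Windows reached 10 kb to either side of a gene of GENCODE release 21, and a promoter 1 kb to either side of the start of a coding transcript. Each region was placed as promoter, exon, intron or flank, in that order. All 10 genes were described, each by its number of regions, the region nearest a start, that with the largest difference and every DMR, and wider genes were named where a window held a DMR. Members, lists and markers were chosen with earlier results of these data known. Of the 10 genes, 5 had a promoter in the RefSeq table (GRCm38.p6). Scripts used matplotlib 3.10.9, pysam 0.24.0, scipy 1.17.1, pandas 2.3.3, numpy 2.4.6 and python 3.11.15 and were tested on simulated data. The alternatives concerned the window, the q-value, the difference, the number of cytosines or of dinucleotides, weighting, overlap and leaving out Nfatc1.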

Additional observations from a re-analysis of the deposited data

How the results depend on the processing

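The limits of these values are that they are group means with no per-mouse value and no depth, that cytosines of 1 region are not independent, and that regions outside the tables were not examined. No paired analysis was possible because the tables hold only group means, and for the same reason no replicate could be left out. The number of hypomethylated DMRs, 5 in CD11b+ and 6 in CD4+ cells, became 1 and 2 with more than 20 cytosines, 2 and 0 without Nfatc1, 3 and 3 with a difference above 30 points, 17 and 27 with no q-value threshold, and again 17 and 27 with Benjamini-Hochberg adjusted Mann-Whitney p-values below 0.05 in place of the q-value. In CD4+ cells it became 3 with a q-value below 0.01. Counted in CpG dinucleotides of mm10, an alternative chosen after seeing the data, more than 10 left 4 in CD11b+ and 3 in CD4+ cells. With more than 20 cytosines, the share of regions lower in the mutant was 100% of 12 in CD11b+ and 95.2% of 21 in CD4+ cells, outside the 95% exact binomial intervals of the main shares (87.2% to 94.6% and 95.3% to 99.1%, which cover counting error only), and the CD4+ median loss was 15.74 points. The same setting left 5 pairs of overlapping regions and turned the median difference between the cell types to 0.05 points. These settings used fewer regions or another criterion, and the reason for each change was not tested. The binomial intervals take regions as independent draws, though the regions share the same mice. The other 44 combinations of result and setting, among them the gene body alone, flanks of 5 or 20 kb, regions lying mostly inside the window and weighting by cytosines, kept the direction and stayed within 1.5 times the count or median, or within the interval of the share.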
